A study of Arabidopsis thaliana with 12 samples.

Results

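The 10 genes described here serve the uptake of nitrate and ammonium by Arabidopsis thaliana roots, the loading of nitrate into the xylem and the reduction of nitrate to ammonium. They were chosen by gene identifier and are NRT1.1 (AT1G12110), NRT2.1 (AT1G08090), NRT2.2 (AT1G08100), NRT2.4 (AT5G60770), NRT3.1 (AT5G50200), NRT1.5 (AT1G32450), NIA1 (AT1G77760), NIA2 (AT1G37130), NIR1 (AT2G15620) and AMT1;1 (AT4G13510). They are 10 of 33602 genes tested. RNA depleted of ribosomal RNA was sequenced from roots of Col-0 seedlings harvested 6 days after germination from 1/2 MS plates, a medium that supplies both nitrate and ammonium. The 12 samples form 4 groups of 3 replicates, namely trm4b-1 on 0.01 uM paraquat, trm4b-1 on control medium without paraquat, wild type (WT) on 0.01 uM paraquat and WT on control medium. Paraquat is a herbicide that drives the formation of superoxide, and TRM4B is an RNA cytosine methyltransferase. The sources used here do not say what kind of mutation trm4b-1 is.

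The files hold the authors' tables of 5 comparisons, with no values per sample, so depth and the spread of single replicates are unknown. A gene appears in a table only if its adjusted p was under 0.1, and a gene that is not listed has no value there. Below, a gene is called changed where its adjusted p was under 0.05 (limma, Benjamini-Hochberg adjustment over all genes tested). Fold changes are taken as log2. The figure after ± is a standard error worked out from a gene's fold change and p. Libraries labelled trm4b-1 held more TRM4B RNA than WT libraries, by 3.90 ± 0.08 on paraquat and 2.89 ± 0.08 on control medium in the authors' deposited table. The order of the groups in the tables' names, with paraquat before control and trm4b-1 before WT, is taken as the direction of each fold change. No column states it, and the higher TRM4B goes against a loss of the gene. All rises and falls below, with paraquat and between genotypes, rest on that order and on the labels.

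Plants take up nitrate through carriers of the NRT1 and NRT2 families and ammonium through AMT carriers. Nitrate reductase in the cytosol turns nitrate into nitrite, nitrite reductase in plastids turns nitrite into ammonium, and glutamine synthetase and glutamate synthase fix the ammonium into amino acids. In roots the electrons for nitrite reduction come from ferredoxin, which is recharged from NADPH of the oxidative pentose phosphate pathway. Many genes of this route are induced by nitrate within minutes to hours through NLP transcription factors.

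Short stretches of sequence bear on how these genes can be read. The first is the element through which NIR1 is known to respond to nitrate, made of GACCCTT, then any 10 bases, then AAG. It was searched on both strands from 250 bases before to 50 bases after the gene start. In TAIR10 the match in NIR1 lies at chr2:6810454-6810483 on the plus strand with 5 flanking bases on either side. The element spans the deposited gene start, from base -17 to base 3. Capitals mark the fixed letters of the element.
NIR1 site: aacttGACCCTTtacattgctcAAGagctc
Of 27444 protein-coding genes, 7 (0.0255%) hold this pattern in the same window, taken from their RefSeq starts in TAIR10.1. None of the other 9 genes held it. The element was defined in this promoter, so the match is a description and not a finding. The RefSeq start of NIR1 lies 81 bases before the deposited one, and counted from that start the site falls outside the window.

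The second stretch concerns genes that could share reads. NIA1 and NIA2, the nitrate reductase pair, have coding sequences of 2754 bases each that are 72.2% identical. Their longest shared run is 20 bases. It is printed to show how short the longest common stretch is, with no capitals, and starts at coding base 607 of NIA1 and 589 of NIA2.
NIA1 and NIA2: aaggaacagaacatggtgaa
No run of 50 coding bases of NIA1, NIA2, NIR1, NRT1.1, NRT1.5 or AMT1;1 occurs a second time in the genome (0%). Exact runs of coding bases of these 6 genes can thus be told apart at that length. Exon bases outside the coding sequence and inexact matches were not searched. How reads were counted is not given in the sources used here, so shared reads are not excluded. The tandem pair NRT2.1 and NRT2.2 is different. These coding sequences are 88.1% identical and share a run of 170 bases, and 11.3% of the 50-base runs of NRT2.1 occur more than once.

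Of the 10 genes, 6 were listed in at least 1 table and 5 changed in at least 1 comparison. With paraquat, 4 of 10 changed in the libraries labelled trm4b-1 (1 higher, 3 lower), where 9.05% of all genes tested were called (4.72% higher, 4.33% lower). In WT 4 of 10 changed with paraquat (2 higher, 2 lower), where 17.0% of all genes were called (7.99% higher, 9.01% lower). The 33602 genes tested outnumber the 27444 protein-coding genes searched above. Genes hardly expressed in roots are thus likely among those tested, and the shares among expressed genes would then be higher. The 10 genes were also chosen with earlier results of these data known. NRT1.1, NRT1.5 and NIA2 changed in both genotypes, and 6.56% of all genes did so. With paraquat the called changes ran from 0.42 to 0.88 in log2 size, while the median size over all called genes was 0.76 in the libraries labelled trm4b-1 and 0.72 in WT.

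**Figure D1:**
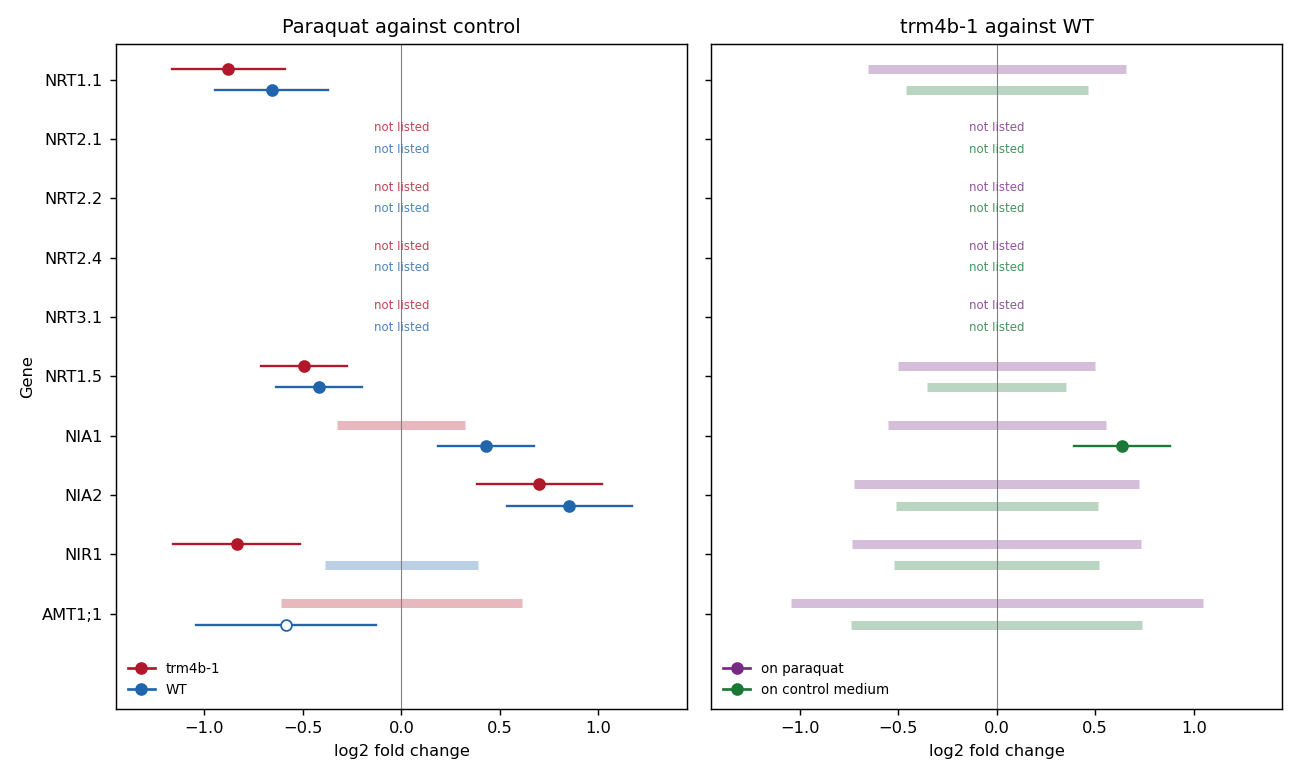
Log2 fold changes of the 10 genes with paraquat in each genotype (left) and between genotypes on each medium (right). Points are deposited values with 95% intervals, filled where the adjusted p was under 0.05; pale bars span the sizes that the listing limit leaves for a gene not listed there. NRT1.1 and NRT1.5 lie below 0 and NIA2 above 0 in both genotypes.

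NRT1.1, which carries and also senses nitrate, fell with paraquat in both genotypes. The gene lies on chromosome 1 from 4105233 to 4109545 on the plus strand (TAIR10), in 5 exons of 2136 bases in all. In the libraries labelled trm4b-1 its log2 change was -0.88 ± 0.13 (adjusted p = 0.00043), to 0.544 of the control level, in the authors' deposited table. In the authors' deposited table for WT it was -0.66 ± 0.13 (adjusted p = 0.00284), to 0.634 of the control level. Among called genes that fell, 35.3% fell further than NRT1.1 in the libraries labelled trm4b-1 and 54.1% did in WT, so its fall was near the middle of the range.

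NRT1.5, which loads nitrate into the xylem for transport to the shoot, also fell in both genotypes. The gene spans 11715150 to 11719970 of chromosome 1 (minus strand) and has 6 exons of 2195 bases. The authors' deposited table gives a log2 change with paraquat of -0.50 ± 0.10 (adjusted p = 0.00518) in the libraries labelled trm4b-1. For WT the authors' deposited table gives -0.42 ± 0.10 (adjusted p = 0.00944). These falls, to 0.709 and 0.748 of the control level, were smaller than most: 72.3% and 80.7% of the called genes that fell did so by more.

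The 4 NRT2 and NRT3 genes of high-affinity nitrate uptake among the 10 were not listed in any of the 5 tables. They are NRT2.1, the main high-affinity uptake carrier, NRT2.2, its close relative, NRT2.4, a carrier of nitrogen-starved roots, and NRT3.1, the partner protein that NRT2 carriers need. NRT2.1 (chromosome 1, 2524023 to 2526322) and NRT2.2 (chromosome 1, 2527170 to 2529120) are neighbours 847 bases apart in RefSeq's TAIR10.1 annotation. NRT2.4 lies on chromosome 5 from 24444365 to 24447127 and NRT3.1 on chromosome 5 from 20436180 to 20437815 in the same annotation. With no value in any table, neither a level nor a size of change can be given for these 4 genes. An unlisted gene may have been unchanged, variable or hardly expressed, and the tables do not separate these cases.

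NIA2, which encodes the major nitrate reductase of Arabidopsis, rose with paraquat in both genotypes. It lies on chromosome 1 from 14158527 to 14161938 on the plus strand, in 3 exons of 3130 bases. In the libraries labelled trm4b-1 the authors' deposited table gives a log2 change of 0.70 ± 0.15 (adjusted p = 0.00636), which is 1.62-fold. In WT the authors' deposited table gives 0.85 ± 0.15 (adjusted p = 0.000835), which is 1.80-fold. Among called genes that rose, 60.5% rose further in the libraries labelled trm4b-1 and 42.8% in WT. NIA2 was the only one of the 10 genes called as higher in both genotypes. NIA1 was not listed in 1 of these tables, and 4 genes had no value in either.

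NIA1, the other nitrate reductase gene, changed in WT with paraquat and between the genotypes on control medium. Its 4 exons of 3034 bases lie on the minus strand of chromosome 1, between 29235803 and 29239445. With paraquat in WT it rose by 0.43 ± 0.11 (adjusted p = 0.0159), which is 1.35-fold, in the authors' deposited table. On control medium it was higher in the libraries labelled trm4b-1 than in WT by 0.63 ± 0.11 (adjusted p = 0.0103), which is 1.55-fold, in the authors' deposited table. Both comparisons rest on the same 3 WT control samples. The paraquat table of the libraries labelled trm4b-1 does not list NIA1, and at its largest recovered standard error a change of more than 0.32 in size would have been.

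NIR1, the single nitrite reductase gene of Arabidopsis and the carrier of the site printed above, was called in 1 comparison, as lower with paraquat among the libraries labelled trm4b-1. It lies on chromosome 2 from 6810476 to 6812939 on the plus strand, in 4 exons of 2110 bases. Its log2 change was -0.84 ± 0.15 (adjusted p = 0.00184), to 0.560 of the control level, in the authors' deposited table. In those libraries NIR1 and NIA2, which act one after the other, thus moved in opposite directions. In WT NIR1 was not listed, and at the standard error it had in the libraries labelled trm4b-1 a change of more than 0.39 in size would have been. It was not listed in the interaction either, so a difference between the 2 responses did not pass the limit.

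AMT1;1, an ammonium uptake carrier of the root epidermis, was listed once and did not pass the threshold. It is a gene of 1 exon on chromosome 4, from 7858183 to 7859918 on the plus strand. With paraquat in WT the authors' deposited table gives a log2 value of -0.59 ± 0.22 (adjusted p = 0.0791). The Storey q in the authors' deposited table was 0.0476, so the call depends on which correction is used. Its standard error was the largest of the 6 listed genes. In the same comparison 7 of 8 root hair markers fell, where 9.01% of all genes did, and their part in this value was not tested.

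Between the genotypes the 10 genes showed little that passed the limits of the tables. On paraquat 0 of 10 were listed, where 0.143% of all genes were called, and on control medium NIA1 alone was called, as higher, where 2.03% were (0.839% higher). In the interaction, which asks whether paraquat acted differently in the libraries labelled trm4b-1 and in WT, 0 of 10 were listed (0.318% of all genes called). For genes listed in both paraquat tables the difference of the responses can be rebuilt from the authors' deposited tables, as trm4b-1 minus WT. It was -0.22 for NRT1.1 (95% interval -0.63 to 0.18), -0.08 for NRT1.5 (-0.39 to 0.23) and -0.15 for NIA2 (-0.60 to 0.30). All 3 intervals hold 0 and also leave room for differences of up to 0.63, 0.39 and 0.60 in size, so equal responses are not shown. The remaining 7 genes lack a value in at least 1 of the 2 paraquat tables and cannot be compared in this way. Genes that passed the limit in only 1 genotype, such as NIR1, are thus left out, which favours intervals that hold 0.

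**Figure D2:**
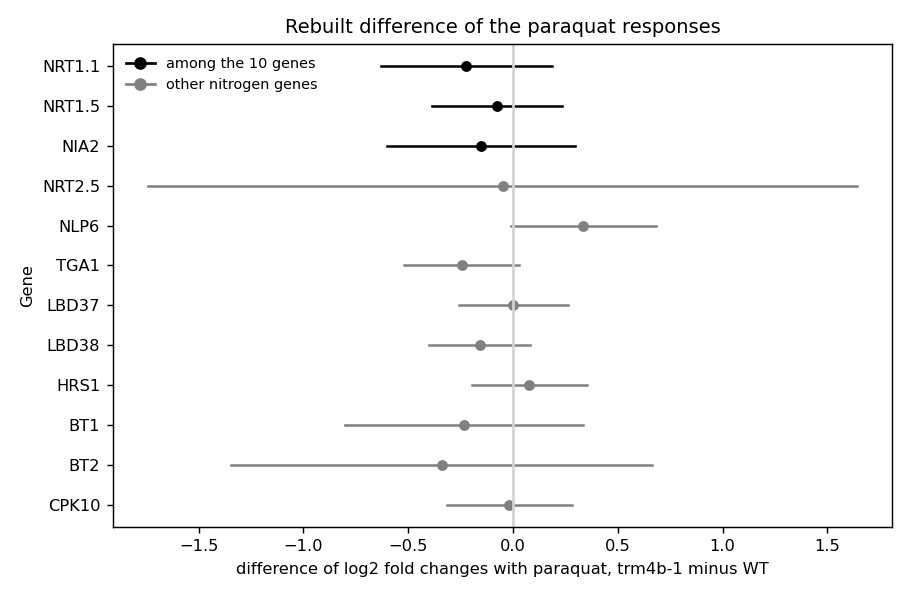
Difference of the log2 changes with paraquat, trm4b-1 minus WT, rebuilt for the 12 nitrogen genes listed in both paraquat tables; points with 95% intervals. NRT1.1, NRT1.5 and NIA2 (black) have intervals that hold 0, and so do the other 9 genes (grey), with NRT2.5 the widest.

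A wider list of 78 genes of nitrogen transport, assimilation, cofactor supply and regulation gives the surroundings of the 10. With paraquat 17 of 78 changed in the libraries labelled trm4b-1 (4 higher, 13 lower) and 23 of 78 in WT (6 higher, 17 lower), or 21.8% and 29.5% against 9.05% and 17.0% of all genes. The shares of all genes would again be higher among expressed genes. The 78 genes were also chosen with earlier results of these data known, so their shares are a description and not a test. Between the genotypes 1 of 78 changed on paraquat, where 0.143% of all genes were called, and 0 on control medium, where 2.03% were. In the interaction 0 changed, where 0.318% of all genes were called. With shares this low, such counts say little about the 78 genes. At the limit of the tables, which is looser, 3 were listed on control medium and 1 in the interaction. Of the 78 genes, 41 were listed nowhere.

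**Figure D3:**
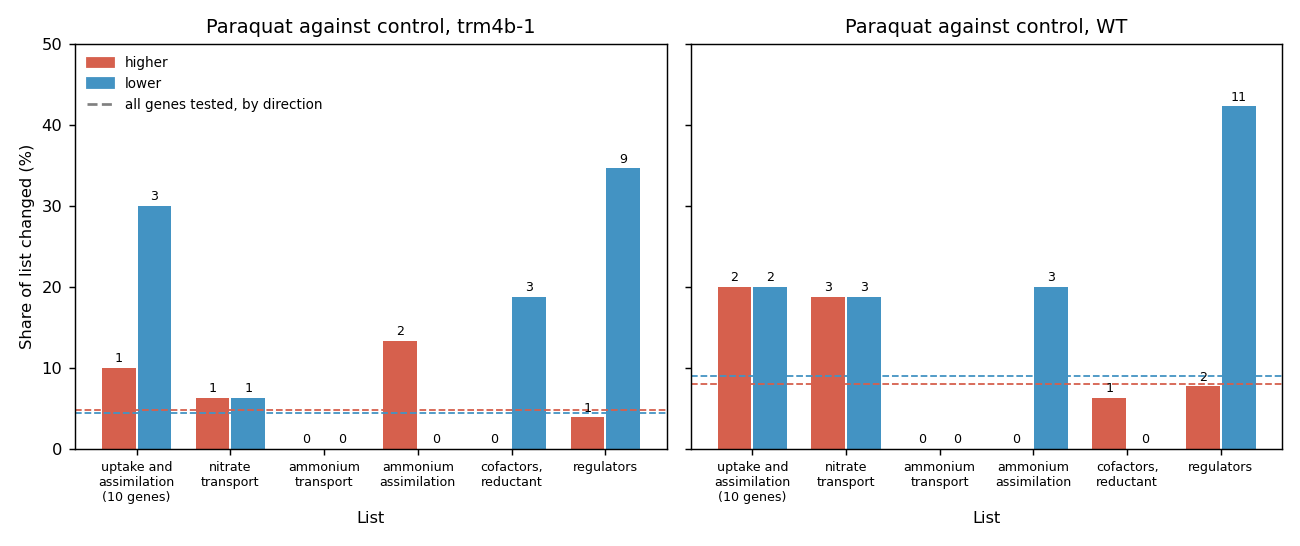
Share of each list, in percent, that rose or fell with paraquat, in libraries labelled trm4b-1 (left) and in WT (right), with the number of genes above each bar. Dashed lines give the share of all genes tested that rose or fell; the bars of regulators that fell (9 and 11 genes) lie furthest above them. The lists were chosen with earlier results of these data known.

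Regulators of nitrogen responses that changed mostly fell. In the libraries labelled trm4b-1 9 of 26 fell and 1 rose, and in WT 11 fell and 2 rose, against 4.33% and 9.01% of all genes that fell. BT1 and BT2 encode BTB/TAZ proteins that are themselves induced by nitrate. BT1 changed by -3.32 ± 0.20 in the libraries labelled trm4b-1 and -3.09 ± 0.18 in WT in the authors' deposited table (adjusted p = 3.8e-08 and 3.55e-08). Only 1.24% and 1.35% of the called genes that fell did so by more. For BT2 the changes were -2.06 ± 0.34 in the libraries labelled trm4b-1 and -1.72 ± 0.33 in WT in the authors' deposited table. HRS1, a nitrate-induced repressor of the NIGT1 family, had -0.82 ± 0.09 in the libraries labelled trm4b-1 and -0.90 ± 0.09 in WT in the authors' deposited table. These 3 genes fell in both genotypes and by more than the other regulators called in both.

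Transcription factors that act on the nitrate genes fell by less. NLP6 had -0.39 ± 0.12 in the libraries labelled trm4b-1 and -0.73 ± 0.11 in WT in the authors' deposited table. NLP7, the main nitrate sensor among the NLP factors, fell by 0.48 on the log2 scale in WT (SE 0.11, adjusted p = 0.0055) in the authors' deposited table and was not listed in the other genotype. TGA1, which with TGA4 acts on NRT2.1 and NRT2.2, had -0.54 ± 0.09 in the libraries labelled trm4b-1 and -0.29 ± 0.09 in WT in the authors' deposited table. TGA4 fell in the libraries labelled trm4b-1 (-0.46 ± 0.12) in the authors' deposited table. HY5, another transcription factor, had -0.56 ± 0.14 with paraquat in WT (adjusted p = 0.00913) in the authors' deposited table. For trm4b-1 against WT on control medium HY5 had -0.47 ± 0.13 in the authors' deposited table, which was not called (adjusted p = 0.0879). Both HY5 values rest on the same 3 WT control samples. LBD37 and LBD38 repress genes of nitrate uptake and assimilation. LBD37 had -0.36 ± 0.09 in each genotype, and LBD38 had -0.45 ± 0.08 in the libraries labelled trm4b-1 and -0.29 ± 0.08 in WT, in the authors' deposited table. Factors known to promote and factors known to repress nitrate genes were among those that fell. Among kinases and calcium sensors, CBL9 fell by 0.56 on the log2 scale in the libraries labelled trm4b-1 (SE 0.15) in the authors' deposited table. CPK10 had 0.47 ± 0.10 in the libraries labelled trm4b-1 and 0.49 ± 0.10 in WT, and CBL1 rose by 0.63 ± 0.18 in WT, in the authors' deposited table. CPK30 and CPK32 fell in WT, with -0.31 ± 0.08 and -0.25 ± 0.08 in the authors' deposited table (adjusted p = 0.0184 and 0.0475). Neither was listed with paraquat in the other genotype. The rebuilt difference of the paraquat responses, trm4b-1 minus WT, was 0.33 for NLP6 (95% interval -0.01 to 0.68) and -0.24 for TGA1 (-0.52 to 0.03), from the authors' deposited tables.

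The core of the TGA factor site, TGACG, was searched on both strands in the same window. It occurs in 23.1% of all genes and in 2 of the 10, NRT3.1 and AMT1;1. In AMT1;1 the match is on the strand opposite to the gene, and its leftmost base, read along the gene, lies at -79 from the gene start. In NRT3.1 the match is on the gene's own strand and begins at 34. A match in this window is a description of letters only.

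**Figure D4:**
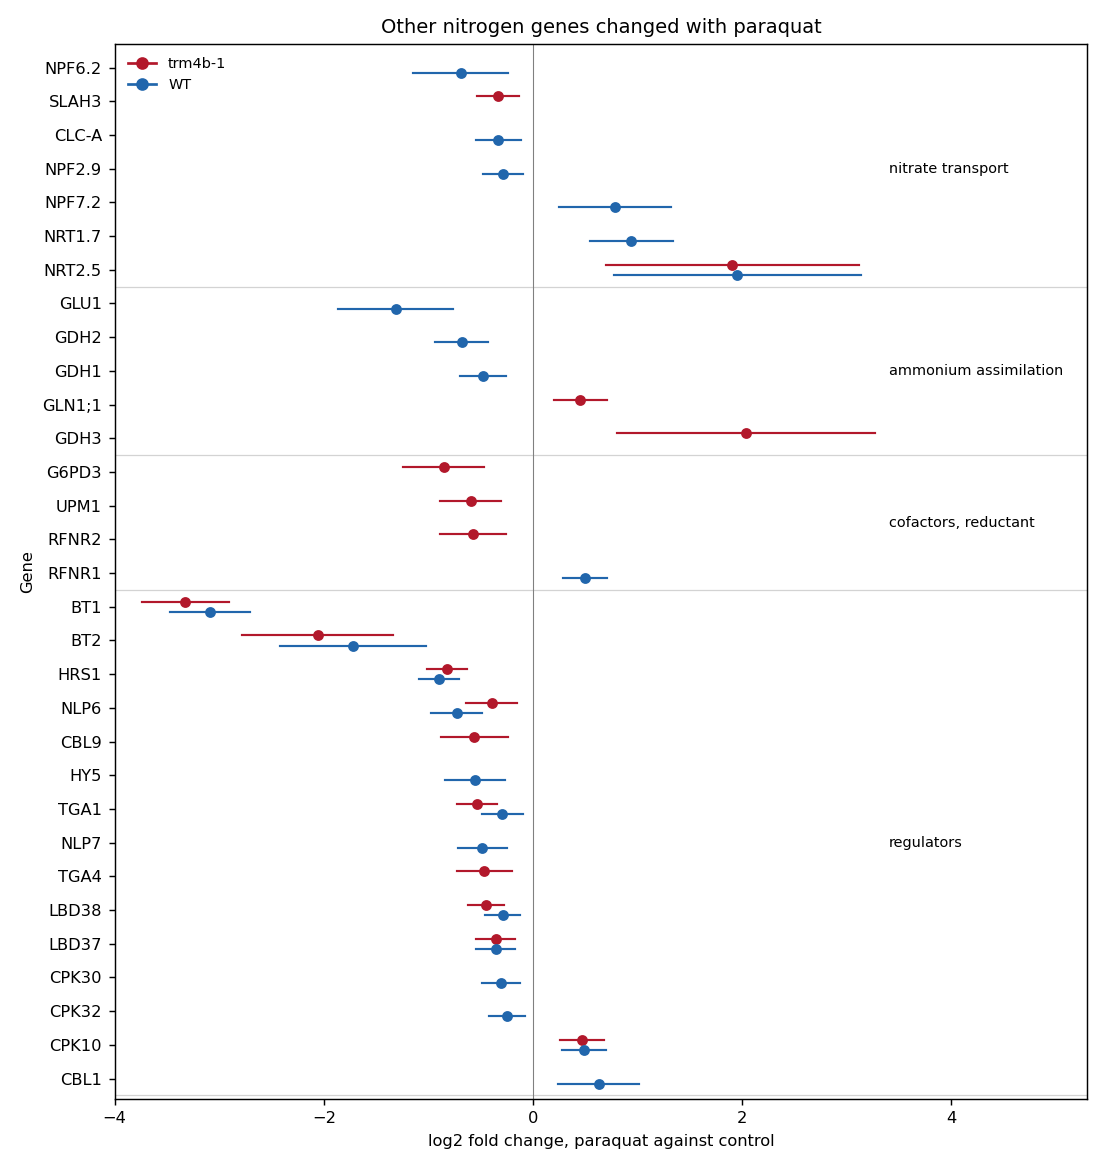
Log2 fold changes with paraquat of the nitrogen genes beyond the 10 that changed in at least 1 genotype; points with 95% intervals, red for libraries labelled trm4b-1 and blue for WT, and no point where a gene was not listed. BT1 and BT2 have the largest falls in both genotypes, and NRT2.5 and GDH3 have the widest intervals.

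Of 16 genes that supply cofactors and reductant, 3 fell with paraquat and none rose in the libraries labelled trm4b-1, the comparison in which NIR1 fell and 4.33% of all genes did. G6PD3, a plastid glucose-6-phosphate dehydrogenase, had -0.85 ± 0.18, UPM1, which makes the siroheme cofactor of nitrite reductase, -0.59 ± 0.14 and RFNR2, a root ferredoxin reductase, -0.57 ± 0.15 in the authors' deposited table. In WT none of these 3 was listed. There 1 of the 16 rose, where 7.99% of all genes did, and none fell. UPM1 and RFNR2 were not listed in the interaction, so no difference between the genotypes is shown for them. In WT RFNR1, the other root ferredoxin reductase, rose by 0.50 ± 0.10 in the authors' deposited table. G6PD3 was the only one of the 78 genes called between the genotypes. On paraquat it was lower in the libraries labelled trm4b-1 than in WT by a log2 value of -1.59 ± 0.18 (adjusted p = 0.000665), at 0.331 of the WT level, in the authors' deposited table. On control medium its value was -0.57 ± 0.16 (adjusted p = 0.0911), and in the interaction -1.03 ± 0.24 (adjusted p = 0.0876), in the authors' deposited table. Its paraquat change in WT, rebuilt from the authors' deposited tables, was 0.17 (95% interval -0.16 to 0.51).

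Other nitrate carriers moved in both directions. NRT2.5, a high-affinity carrier of nitrogen-starved plants, had 1.90 ± 0.57 in the libraries labelled trm4b-1 and 1.95 ± 0.55 in WT in the authors' deposited table (adjusted p = 0.0482 and 0.0228). It was the only NRT2 gene listed, with standard errors several times those of NRT1.1. In WT NRT1.7, which moves nitrate out of older leaves, rose by 0.94 ± 0.19 and NPF7.2 (NRT1.8), which takes nitrate back from the xylem, by 0.78 ± 0.25 in the authors' deposited table. NPF7.2 thus rose in WT while NRT1.5, which works in the opposite direction at the xylem, fell. NPF6.2 (AT2G26690) fell by 0.69 on the log2 scale in WT (SE 0.21), and CLC-A, the vacuolar nitrate exchanger, by 0.33 (SE 0.10), in the authors' deposited table. NPF2.9 (NRT1.9), a phloem carrier, fell by 0.29 in WT (SE 0.09), and SLAH3, an anion channel, by 0.33 in the libraries labelled trm4b-1 (SE 0.09), in the authors' deposited table. Counted over the 16 genes, 1 rose and 1 fell in the libraries labelled trm4b-1, a share (12.5%) near the 9.05% of all genes called there. In WT 3 rose and 3 fell (37.5% against 17.0% of all genes). None of the other 5 ammonium carriers was listed in any table.

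Of 15 genes of ammonium assimilation, 2 rose and none fell in the libraries labelled trm4b-1, and none rose and 3 fell in WT. These shares, 13.3% and 20.0%, lie near the 9.05% and 17.0% of all genes called. GLN1;1, a cytosolic glutamine synthetase, rose by 0.45 ± 0.12 and GDH3, a glutamate dehydrogenase, by 2.04 ± 0.58 in the libraries labelled trm4b-1 in the authors' deposited table. In WT GLU1, the ferredoxin-dependent glutamate synthase prominent in leaves, had -1.31 ± 0.26, GDH2 -0.68 ± 0.12 and GDH1 -0.48 ± 0.10 in the authors' deposited table. None of these 5 genes was listed in the paraquat table of the other genotype, and none in the interaction, so no difference between the genotypes is shown.

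Markers of single cell types moved in the same comparisons. The paraquat counts below stand against 4.72% of all genes tested called higher and 4.33% lower for trm4b-1. For WT those shares were 7.99% higher and 9.01% lower. With paraquat 0 of 8 root hair markers changed in the libraries labelled trm4b-1 and 7 of 8 fell in WT. Of 8 endodermal markers, 1 fell in the libraries labelled trm4b-1 and 5 fell in WT. Of 6 stele markers, 1 rose and 1 fell in the libraries labelled trm4b-1 and 1 rose in WT. Among them SKOR, the potassium channel that loads the xylem, had -1.19 ± 0.17 in the libraries labelled trm4b-1 and HKT1, a sodium carrier, 2.37 ± 0.21 in the libraries labelled trm4b-1 and 2.71 ± 0.25 in WT in the authors' deposited table. Of 10 photosynthesis genes of shoot tissue, 1 rose in the libraries labelled trm4b-1 and 8 fell in WT, in the comparison in which GLU1 fell. On control medium 6 of 8 root hair markers were lower in the libraries labelled trm4b-1 than in WT, in the comparison in which NIA1 was higher and 1.19% of all genes were lower. There 2 of 8 endodermal markers and 1 of 10 photosynthesis genes were also lower. Of the 6 stele markers 1 was higher there, SKOR, where 0.839% of all genes were. For SKOR the authors' deposited table gives 0.97 ± 0.16 (adjusted p = 0.00571). This comparison and the one with paraquat in WT rest on the same 3 WT control samples. Both log2 values of SKOR rest on the same 3 trm4b-1 control samples. Of the 8 root hair markers 1, LRX1, was called in the interaction, where 0.318% of all genes were called. On paraquat 0 of the 8 were listed between the genotypes, where 0.143% of all genes were called. The part of these cell types in the nitrogen gene changes was not tested. In bulk roots fewer cells of a type and less RNA per cell cannot be told apart, and with no levels in the files neither the summed level of a marker list nor markers at 0 can be given.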

How the data were processed

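Per the submitters' processing notes, reads were handled with Trimmomatic, TopHat and limma on genome build TAIR10. For versions, read counting, use of strand, normalization and filters the notes give nothing (not given in the sources used here). Per the file headers, the 5 tables deposited by the authors hold for each listed gene a log fold change, read as log2 by limma's convention, with p-values raw and adjusted, Storey q-values and exon positions. No values per sample were used, so replicates could not be left out or compared.

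Adjusted p times rank divided by p gave 33602 genes tested. In 96 genes the interaction was the trm4b-1 paraquat value minus the WT one, which makes the tables' directions fit each other but would hold as well if all were turned. The direction used, trm4b-1 over WT and paraquat over control, is the order of groups in the table names and is not checked by any value. Additivity of the variances in those genes gave 15.3 degrees of freedom, and standard errors follow from the fold change and p. For an unlisted comparison, the size that would have been listed was taken from the largest p listed and the gene's largest recovered standard error. Over 2887 genes listed in both paraquat tables, the standard error in WT divided by that in trm4b-1 had a median of 1.00 (0.912 to 1.12 from the 5th to the 95th percentile), which bears on that step. The recovery was tested on simulated data.

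The 10 genes, the wider list (78 of 79 entries matched the RefSeq TAIR10.1 annotation) and the marker lists were chosen with earlier results of these data known. The text names all 10 genes and, of other lists, changed genes from the largest change down, up to 4 per list, direction and comparison. NLP7, TGA1, TGA4, LBD37 and LBD38 fall outside that rule and were named for their known roles after their values were seen. HY5, CPK30 and CPK32 also fall outside it and are named so that no called regulator is left out. Sequences were read from the RefSeq TAIR10.1 genome. At the deposited exon positions 97.6% of 38818 introns had GT and AG ends there. Whether replicates came from separate plants is stated only as biological replicates in the design text. Biopython 1.88, matplotlib 3.10.9, scipy 1.17.1, pandas 2.3.3 and numpy 2.4.6 were run under Python 3.11.15.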

Additional observations from a re-analysis of the deposited data

How the results depend on the processing

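The calls of the 10 genes rest on changes of moderate size. When a log2 size of 1 or more was also required, 0 of the 10 were called with paraquat in trm4b-1 (3.19% of all genes), 0 in WT (5.53%) and 0 between the genotypes on control medium (0.649%). Holm adjustment likewise left 0, 0 and 0 (1.34%, 1.93% and 0.122% of all genes). At an adjusted p under 0.01 NIA1 lost its call on control medium (0 of 10, 0.479% of all genes) and with paraquat in WT (3 of 10 left, 10.3% of all genes). With paraquat in trm4b-1 4 of 10 were still called (5.15% of all genes). Of the 78 other nitrogen genes, 7 were called with paraquat in trm4b-1 and 13 in WT at an adjusted p under 0.01 (5.15% and 10.3% of all genes). When a log2 size of 1 or more was required, 4 and 4 were called, or 5.13% each against 3.19% and 5.53% of all genes. In WT that share was not above the share of all genes. Holm adjustment left 2 and 2, BT1 and HRS1, or 2.56% each against 1.34% and 1.93% of all genes. At a Storey q under 0.05, an alternative chosen after seeing the data, AMT1;1 was added in WT (5 of 10, 20.2% of all genes). In the nearest 200 bases before the start, 0 of the 10 genes held the nitrate-responsive element and 1 held TGACG. With 8 residual degrees of freedom in place of 15.3, the standard error of NRT1.1 with paraquat in trm4b-1 was 0.0881 in place of 0.135, and those of the other listed values of the 10 genes shrank by less. No deposited interaction value existed for the 10 to set beside a rebuilt one. No paired analysis was possible because the tables hold no values per sample, and no replicate could be left out for the same reason. Depth is unknown, so genes not listed cannot be called unchanged.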
